A study of Homo sapiens with 21 samples.

Results

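The 202 genes described here were those whose counts differed between 4 Oxy186-treated A549 xenografts, r1-r4, and 7 control xenografts after the GC trend of each library was entered in the fit. A gene became a member when its fold change was over 2 and its Benjamini-Hochberg adjusted p was at or under 0.05 by the quasi-likelihood test of edgeR. Of 60651 genes in the count table, 16852 passed the filter on low counts and were tested, and 144 of these (0.854%) were lower and 58 (0.344%) higher in r1-r4. All 202 members passed that filter, since only tested genes could be chosen. The members were thus chosen by their log2 fold changes and adjusted p in r1-r4 against control, and these values are given as a description that supports nothing further. Tests are reported for comparisons that bring in other tumors, 1 of which shares no library with that choice.

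A549-Luc2 cells, a human lung adenocarcinoma line that carries luciferase, had been injected with Matrigel under the skin of female athymic nu/nu mice 6 to 8 weeks old, and 10 mice were assigned at random to each of 3 groups. The mice received Oxy186, Oxy210 or vehicle alone by oral gavage every day, with 50 mg/kg of either oxysterol in a mixture of DMSO, ethanol, PEG400 and corn oil, and RNA of 7 tumors per group was sequenced. The study itself selected r1-r4 among the 7 Oxy186-treated tumors because they stood apart from the control group on its principal component plot, and left r5-r7 out. A tumor of this kind holds human cancer cells and mouse stroma, reads were assigned to human genes, and athymic mice lack mature T cells while keeping other immune cells. In whole tumors, fewer cells of a type and less RNA per cell cannot be told apart, and the p-values below measure the spread between these tumors.

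Oxy186 and Oxy210 are synthetic relatives of oxysterols, the oxidized forms of cholesterol that act on Hedgehog (HH), liver X receptor and other sterol-sensing pathways. The groups of genes that recur among the members have well-known roles. Mitochondrial DNA is transcribed from both strands as long precursors, from which the messages of respiratory chain subunits, the ribosomal RNAs and the transfer RNAs are cut. Replication-dependent histone genes lie in clusters, lack introns and are used mainly in S phase, and their messages usually end in a stem-loop in place of a poly(A) tail. p53 activates genes of cell cycle arrest and cell death, among them members of the BCL2 family that act at the mitochondrial surface.

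The libraries held 13787493 to 17865119 counts on human genes, so depth was alike in all groups. The GC slope was taken from each gene's log2 CPM (counts scaled to the size of the library) less its mean over the 21 libraries. It is the change of this difference for each 10 percentage points of exon GC, so the slopes average 0 over the series. The slope was -0.51 to -0.18 in r1-r4, -0.15 to 0.40 in the control group, 0.079 to 0.49 in r5-r7 and -0.33 to 0.26 in the Oxy210-treated samples. The r1-r4 slopes were below those of all control samples and r5-r7, while 1 Oxy210-treated sample lay within their range. All 15 markers of A549 and lung epithelium were tested and none was called, with a summed level of 22920 to 34800 CPM in r1-r4 and 22569 to 31764 CPM in the control group. Human counts on fibroblast markers summed to 158 to 288 CPM in r1-r4 and 200.1 to 421 CPM in the control group, with 7 of 14 tested and none called. Endothelial markers (3 of 12 tested) summed to 3.23 to 4.13 and 3.26 to 7.35 CPM, leukocyte markers (5 of 15) to 15.3 to 27.6 and 14.7 to 35.4 CPM, and erythroid, muscle and adipocyte markers (2 of 16) to 8.87 to 16.99 and 8.95 to 21.7 CPM. None of these was called. The fibroblast marker POSTN and the leukocyte marker S100A8 were at 0 in all of r1-r4 and in all control samples, as were COL1A2, MS4A1 and TYROBP in the control samples alone. Of the last list 9 markers were at 0 in all of r1-r4 and 6 in all control samples, and of the endothelial markers CLDN5, ERG, FLT1, TIE1 and VWF were at 0 in all of r1-r4 and none in all control samples. The part of stroma in the results was not tested.

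The GC trend moved most genes of the comparison before it was entered as an offset. Over 10 equal bins of exon GC, the median log2 fold change without offsets was 0.28 in the lowest and -1.08 in the highest bin. With offsets the bins had medians between -0.0058 and 0.017. Without offsets 1370 genes were lower and 36 higher, and 152 of the 202 members, 140 lower and 12 higher, were called in both ways. When the offsets were instead centred to keep each library's own mean, the median of all genes moved to -0.11 and the split became 221 lower and 38 higher. The share of higher genes among the calls therefore depended on how the trend was scaled.

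**Figure D1:**
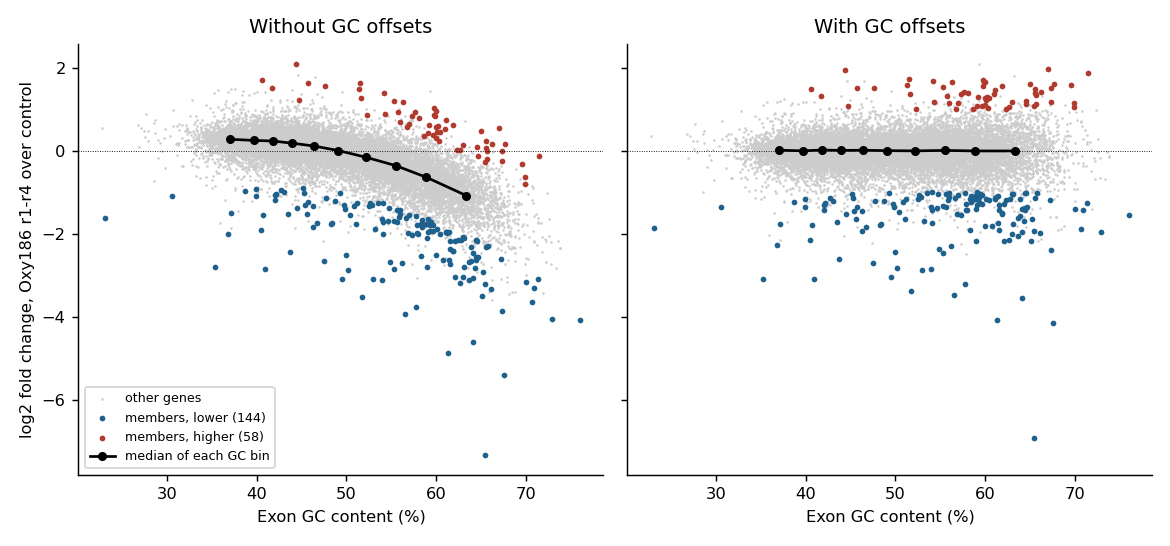
Log2 fold change of r1-r4 over control for each tested gene with a GC value (vertical axis) against the GC content of its exons in percent (horizontal axis), without and with the GC offsets, with members in blue (lower) and red (higher) and the median of each of 10 GC bins as a black line. The line runs from 0.28 to -1.08 without offsets and stays near 0 with them, while the members remain at both edges.

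Members at the edge of the rule differed little from their neighbours. Just inside the fold threshold lay ANKRD9 at a log2 fold change of -1.0002 ± 0.13, GET3 at 1.0014 ± 0.20 and SENP3 at -1.0048 ± 0.15, and just outside it LFNG at -0.9993 ± 0.19, ELN at -0.9970 ± 0.21 and ACAP1 at -0.9968 ± 0.23. Just inside the limit on the adjusted p lay AL139246.5, AC011294.1 and MGAT2, with adjusted p-values of 0.0498, 0.0493 and 0.0494 by edgeR's quasi-likelihood test. CBR3, FBN2 and SNAP25-AS1 lay just outside it, each at 0.0521. Without the limit on fold change, 381 genes were lower (2.26%) and 302 higher (1.79%). All of r1-r4 lay outside the control range in 819 tested genes (4.86%), among them 116 of the lower and 39 of the higher members.

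The members shared several features, of which exon GC entered the rule through the offsets. Their exons were short, with a median total length of 2207 bases in the lower and 1520.5 bases in the higher members against 4767 bases over all genes tested. They were GC-rich, with medians of 57.8% and 60.0% against 47.6%, although the trend had been entered, and the highest of the 10 GC bins still held 49 of the lower and 23 of the higher members. Only 12 of the 58 higher members were called without offsets, so their GC content is not independent of the rule. Their mean log2 CPM was lower, with medians of 2.25 and 2.31 against 4.11. At least 20% of exon bases lay inside another gene in 43.1% of the lower and 31.0% of the higher members, against 14.2% of all genes tested, and pseudogenes made up 13.2% and 19.0% against 4.42%. Protein-coding genes numbered 103 of 144 and 37 of 58, against 13486 of 16852 genes tested. The mitochondrial chromosome held 6 members of 24 genes tested (25%), chromosome 16 held 2.53% and chromosome 19 held 2.46% of their tested genes, and chromosomes 13 and 21 held none, against 1.20% over all genes.

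All values per tumor below are GC-corrected log2 CPM, and fold changes are log2 fold changes of the GC-corrected fit with their standard error (SE), from 4 samples of r1-r4 and 7 control samples. Gene positions are those of GENCODE 44 on GRCh38. The largest decreases and increases among protein-coding genes with little overlap were named only if r1-r4 lay wholly outside the control range. For them, that separation was fixed by the choice. Among the lower members was a group of genes of the mitochondrial genome. Of 24 tested genes of that genome, 6 (25%) were members, all lower, against 0.854% of all genes tested, 11 were lower at an adjusted p of 0.05 without a fold limit, and 21 had a log2 fold change below 0, with a median of -0.96. The number of members was 4 to 10 over 21 other fits and subsets of the libraries, 4 without offsets and 2 without r3 and r4. The members comprised the messages MT-ND1, MT-ND2 and MT-ND6, which encode subunits of respiratory complex I, and the transfer RNA genes MT-TW, MT-TL1 and MT-TR, for tryptophan, leucine and arginine. The 3 transfer RNA genes, read from the GRCh38 genome, all plus strand, are shown whole because they are the shortest members of this group.
MT-TW, chrM:5512-5579: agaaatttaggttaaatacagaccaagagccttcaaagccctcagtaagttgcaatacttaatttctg
MT-TL1, chrM:3230-3304: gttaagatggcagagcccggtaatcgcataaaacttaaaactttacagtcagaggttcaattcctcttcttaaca
MT-TR, chrM:10405-10469: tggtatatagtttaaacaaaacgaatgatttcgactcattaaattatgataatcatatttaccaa
They measure 68, 75 and 65 bases, and carry no capitals because no part of them is singled out. MT-TW starts right after MT-ND2, and MT-TL1 ends just before MT-ND1. How reads across such borders were counted was not tested, so the counts of these short genes are uncertain.

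MT-ND2 (chrM:4470-5511, plus strand) read 10.30, 10.68, 10.73 and 10.27 in r1-r4, 11.55 to 11.96 (median 11.62) in the control group, 11.64, 11.70 and 11.84 in r5-r7 and 11.32 to 11.93 (median 11.73) in the Oxy210-treated samples. All of r1-r4 lay below every control, r5-r7 and Oxy210-treated sample, and the log2 fold change was -1.21 ± 0.15. MT-ND1 (chrM:3307-4262, plus strand) read 10.38, 10.88, 11.10 and 10.84 in r1-r4 and 11.52 to 12.36 (median 12.05) in the control group (log2 fold change -1.21 ± 0.18). MT-ND6 (chrM:14149-14673, minus strand), the subunit encoded on the other strand, read 8.75, 9.03, 8.45 and 8.20 in r1-r4 and 9.20 to 10.06 (median 9.77) in the control group (log2 fold change -1.13 ± 0.18). For these genes too r1-r4 lay below the range of the control group. Other genes of the same genome had values from near 0 to just short of the fold limit. The log2 fold change was 0.0011 for MT-CO1, a subunit of cytochrome c oxidase, and 0.12 for the ribosomal RNA MT-RNR2, but -0.97 for MT-ATP6, -0.90 for MT-CYB and -0.89 for MT-ND4.

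MT-TW read -0.77, 0.42, -1.14 and -0.77 in r1-r4, on raw counts of 9, 18, 6 and 9, against 0.82 to 3.32 (median 2.34) in the control group, and its log2 fold change was -3.10 ± 0.47. Its r1-r4 values lay below all 7 control values, though r2 approached the lowest of them. MT-TL1 read 2.39, 2.58, 2.60 and 2.08 in r1-r4 and 2.69 to 4.19 (median 3.55) in the control group (log2 fold change -1.24 ± 0.24). MT-TR, at raw counts of 5, 10, 7 and 5 in r1-r4, had a log2 fold change of -1.86 ± 0.46, and its groups overlapped. The share of all counts on mitochondrial genes was 6.74% to 10.3% in r1-r4 and 8.66% to 11.1% in the control group, so the groups overlapped in that share. Among r5-r7, sample r5 read 0.97 for MT-TW and 1.998 for MT-TL1, well below r6 and r7.

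Histone genes were among the higher members. Of 20 tested replication-dependent histone genes 4 (20%) were members, all higher, against 0.344% of all genes tested, and 18 had a log2 fold change above 0, with a median of 0.48. The number of histone members was 1 to 4 over the same 21 fits, 3 without offsets and 1 without r3 and r4. The members were H4C9, H4C5 and H4C14, which encode histone H4, and H2AC11, which encodes histone H2A, the proteins around which DNA is wound. Genes of this family encode nearly identical proteins and share stretches of sequence, so the split of reads between copies is uncertain, and H3P6 and H3P16, histone H3 pseudogenes, were members too at log2 fold changes of 1.37 and 1.57. H4C9 (chr6:27139282-27139678, plus strand) read 5.04, 5.13, 5.92 and 5.44 in r1-r4 and 2.87 to 4.53 (median 3.42) in the control group (log2 fold change 1.71 ± 0.26). In r5-r7 it read 3.53, 2.53 and 3.21, within or below the control range, and in the Oxy210-treated samples 3.02 to 4.71 (median 4.18). H2AC11 (chr6:27133043-27133535, plus strand) read 3.13, 1.85, 1.81 and 1.73 in r1-r4 and -0.33 to 1.35 (median 0.78) in the control group, and its log2 fold change was 1.47 ± 0.36. Its r1 value stood far above the other r1-r4 samples. H4C5 (chr6:26204610-26205021, plus strand) read 2.52, 1.45, 1.67 and 1.23 against -1.01 to 0.88 (median 0.41) (log2 fold change 1.55 ± 0.34), and H4C14 (chr1:149832657-149839767, plus strand) read 2.25, 1.35, 0.87 and 0.05 against -0.51 to 0.58 (median -0.30), with r4 inside the control range (log2 fold change 1.52 ± 0.39). In the fixed lists of DNA replication genes (32 tested, median 0.12) and mitosis genes (30 tested, median 0.12) 0 genes were called, although POLA2, a subunit of DNA polymerase alpha that is in neither list, was a lower member.

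The 150 bases before the start of each of these histone genes and of HSPA1A, described further on, are shown because all 5 genes are higher members that belong to the histone or heat shock list. They come from RefSeq (GRCh38.p14), where all 5 symbols matched, and all lie on the plus strand. Capitals mark TATAAA (the TATA box core), CCAAT and GAANNTTC (a heat shock element core), searched on both strands.
H4C9, chr6:27139132-27139281: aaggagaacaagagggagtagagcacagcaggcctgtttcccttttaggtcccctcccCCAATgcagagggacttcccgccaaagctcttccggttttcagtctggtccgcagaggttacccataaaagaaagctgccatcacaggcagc
H4C5, chr6:26204460-26204609: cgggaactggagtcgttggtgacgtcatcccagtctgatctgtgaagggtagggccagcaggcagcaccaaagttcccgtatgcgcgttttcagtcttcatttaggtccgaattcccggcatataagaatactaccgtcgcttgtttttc
H2AC11, chr6:27132893-27133042: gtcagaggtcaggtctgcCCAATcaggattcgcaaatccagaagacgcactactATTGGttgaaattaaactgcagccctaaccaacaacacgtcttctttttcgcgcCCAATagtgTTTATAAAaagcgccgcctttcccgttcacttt
H4C14, chr1:149832507-149832656: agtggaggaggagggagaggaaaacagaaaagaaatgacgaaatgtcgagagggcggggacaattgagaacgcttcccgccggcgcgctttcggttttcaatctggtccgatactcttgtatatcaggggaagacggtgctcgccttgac
HSPA1A, chr6:31815393-31815542: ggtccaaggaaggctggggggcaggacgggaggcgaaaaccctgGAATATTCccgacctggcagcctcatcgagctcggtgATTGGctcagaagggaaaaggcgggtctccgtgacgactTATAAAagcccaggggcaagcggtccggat
Over 35116 RefSeq promoter windows of the same length, 6.71% held TATAAA, 23.5% CCAAT and 3.26% GAANNTTC. H2AC11 held 5 matches, with TATAAA read once on each strand at overlapping bases, HSPA1A held 3 and H4C9 held 1, and H4C5 and H4C14 held none of these letters in this window.

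Cell death and p53 target genes were among the lower members. Of 25 tested p53 target genes 2 were members, BBC3 and PHLDA3, both lower, and of 17 tested BCL2 family genes 2 were, BBC3 and BIK, while 18 of the 25 and 13 of the 17 had log2 fold changes below 0. Over all genes tested 0.854% were lower members and 8307 of 16852 had a log2 fold change below 0. The members of the p53 list numbered 2 in each of the 21 other fits, 5 without offsets and 1 without r3 and r4, and those of the BCL2 list 1 to 3, 6 and 1. The medians of these lists were -0.18 and -0.17. BBC3 (chr19:47220822-47232766, minus strand), which encodes the BH3-only protein PUMA, read 2.41, 2.30, 1.63 and 2.13 in r1-r4, 3.51 to 4.01 (median 3.79) in the control group, 3.75, 4.05 and 4.19 in r5-r7 and 3.37 to 3.96 (median 3.68) in the Oxy210-treated samples. The groups did not overlap, r1-r4 being below each of the other 17 samples, and the log2 fold change was -1.69 ± 0.18. PHLDA3 (chr1:201464278-201469237, minus strand), an inhibitor of AKT signaling, read 3.98, 3.89, 3.70 and 3.71 in r1-r4 and 4.54 to 5.34 (median 4.92) in the control group (log2 fold change -1.17 ± 0.15). BIK, a BH3-only protein of the endoplasmic reticulum, read 2.23, 3.27, 3.48 and 2.09 against 3.24 to 4.21 (median 3.98), with r2 and r3 inside the control range (log2 fold change -1.02 ± 0.27). CDKN1A, the cell cycle inhibitor p21, had a log2 fold change of -0.65, and MDM2, which marks p53 for degradation, -0.20.

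The largest decreases among protein-coding genes with little overlap were in genes of diverse function. GNG5 (chr1:84498323-84506581, minus strand), a gamma subunit of heterotrimeric G proteins, read 1.34, 1.69, 1.51 and 0.80 in r1-r4 and 2.90 to 4.06 (median 3.17) in the control group (log2 fold change -2.16 ± 0.29). TSPO (chr22:43151547-43163242, plus strand), a cholesterol-binding protein of the outer mitochondrial membrane, read 4.46, 4.81, 4.73 and 3.48 in r1-r4, 5.93 to 6.90 (median 6.29) in the control group, 6.43, 6.53 and 6.73 in r5-r7 and 5.37 to 6.27 (median 5.96) in the Oxy210-treated samples. Its r1-r4 values were below all other samples, with r4 the lowest, and the log2 fold change was -1.97 ± 0.23. SNRPB (chr20:2461634-2470853, minus strand), which encodes the core spliceosomal proteins SmB and SmB', read 6.09, 6.86, 6.37 and 5.26 against 7.42 to 8.35 (median 7.91), a log2 fold change of -1.65 ± 0.25, while 0 of 41 tested splicing factor genes was a member. The groups were apart for GNG5 and SNRPB as well, as the choice required, and r4 was the lowest of r1-r4 for each.

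TMEM141 (chr9:136791344-136793317, plus strand), a transmembrane protein, had a log2 fold change of -2.01 ± 0.32, with 3.43, 3.87, 4.0005 and 2.697 in r1-r4 against 4.52 to 6.17 (median 5.78). ALKBH7 (chr19:6372794-6375250, plus strand), a mitochondrial dioxygenase of the AlkB family, read 3.312, 3.15, 3.73 and 2.14 against 4.17 to 5.02 (median 4.50), a log2 fold change of -1.38 ± 0.24. SLC52A1 (chr17:5032600-5052009, minus strand), a riboflavin transporter, read 0.30, 0.49, 0.69 and -0.003 against 1.49 to 2.38 (median 2.10), a log2 fold change of -1.74 ± 0.25. As the choice required, all 3 were lower in each of r1-r4 than in any control sample. The epithelial polarity gene CRB3 (chr19:6463777-6467221, plus strand) changed by -1.31 ± 0.20, SYTL1 (chr1:27342020-27353937, plus strand), an effector of RAB27 in secretion, by -1.44 ± 0.29, and SHANK3 (chr22:50674415-50733212, plus strand), a scaffold protein known from synapses, by -1.52 ± 0.25. SYTL1 spread widely, from 1.60 in r1 to 3.54 in r3, just below the lowest control value of 3.61. PILRA (chr7:100367530-100400096, plus strand), an inhibitory receptor of myeloid cells, changed by -1.35 ± 0.30, GPRIN2 (chr10:46541736-46556658, minus strand), known to bind G proteins, by -1.35 ± 0.19, and C19orf81 (chr19:50649445-50659310, plus strand) by -1.94 ± 0.41 on raw counts of 20, 19, 8 and 3. EIF5AL1 (chr10:79512533-79516440, plus strand), an intronless copy of the translation factor gene EIF5A, changed by -1.94 ± 0.33, and reads shared with EIF5A make its count uncertain.

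**Figure D2:**
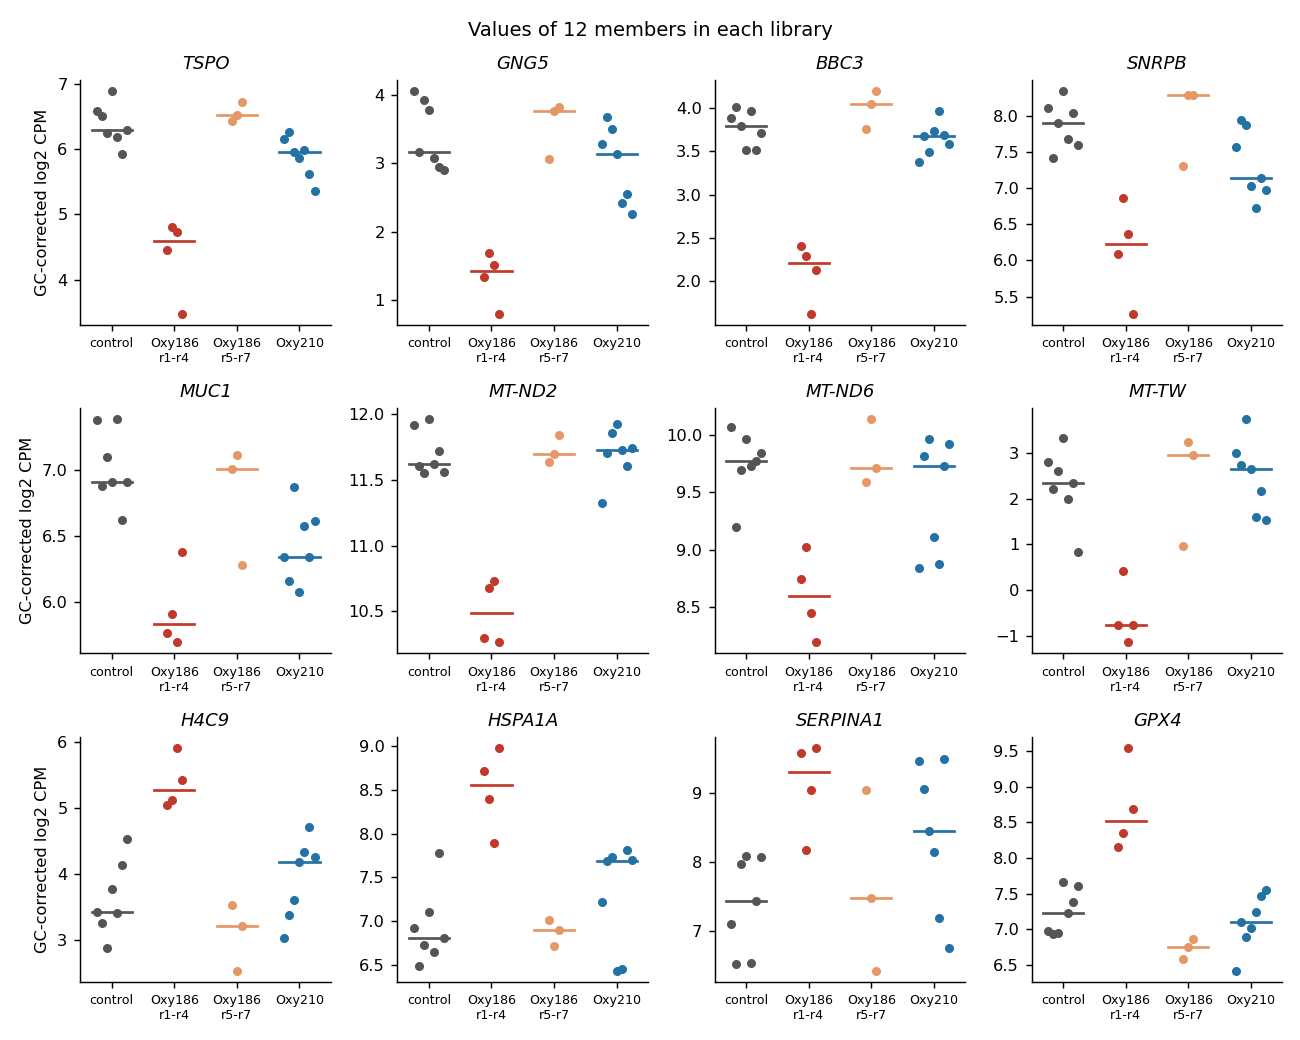
GC-corrected log2 CPM (vertical axis) of 12 members in each library, by group (horizontal axis), with the median of each group as a bar. The r1-r4 samples (red) lie apart from the 7 control samples in each panel, as the naming rule required of the largest decreases and increases. Values of r5-r7 and the Oxy210-treated samples lie in or near the control range in most.

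The largest increases included stress-response and secreted-protein genes. They too were named only with all of r1-r4 outside the control range. HSPA1A (chr6:31815543-31817946, plus strand), the inducible chaperone HSP70, read 8.72, 8.40, 7.89 and 8.98 in r1-r4, 6.50 to 7.78 (median 6.82) in the control group, 7.01, 6.71 and 6.90 in r5-r7 and 6.44 to 7.82 (median 7.69) in the Oxy210-treated samples. All of r1-r4 were above the control range, and the log2 fold change was 1.56 ± 0.23. It was the one member among 17 tested heat shock genes (5.88%), where 0.344% of all genes tested were higher members. A count of 1 in a list of this size is no result about the list. Of these genes, 16 had a log2 fold change above 0, with a median of 0.25, while 8307 of all 16852 genes were below 0. The near-identical copy HSPA1B had a log2 fold change of 0.46, and the division of reads between the pair is uncertain. GADD45B (chr19:2476122-2478259, plus strand), a growth-arrest and stress-sensor gene, read 5.56, 5.34, 4.88 and 4.62 against 3.34 to 4.41 (median 3.73) (log2 fold change 1.31 ± 0.22).

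SERPINA1 (chr14:94376747-94390693, minus strand), which encodes the protease inhibitor alpha-1-antitrypsin, read 9.57, 8.18, 9.04 and 9.65 in r1-r4, 6.53 to 8.09 (median 7.44) in the control group, 9.04, 7.48 and 6.44 in r5-r7 and 6.75 to 9.49 (median 8.45) in the Oxy210-treated samples. Its r1-r4 values were above every control sample, r2 only narrowly, while r5 and 4 of the 7 Oxy210-treated samples lay within the range of r1-r4, and the log2 fold change was 1.69 ± 0.32. SERPINA1 was the one member among 21 tested liver-type secreted genes (4.76%, against 0.344% higher members over all genes). That single call is no result about the list. Of these genes, 17 had log2 fold changes above 0 (median 0.45), such as FGB, a fibrinogen chain, at 0.54, while 8307 of all 16852 genes were below 0. RBP4 (chr10:93591687-93601744, minus strand), the plasma carrier of retinol, read 5.57, 5.89, 5.12 and 5.20 against 2.90 to 4.66 (median 3.90), a log2 fold change of 1.42 ± 0.29. IRX3 (chr16:54283304-54286787, minus strand), a homeobox transcription factor, read 2.36, 2.18, 1.78 and 1.96 against 0.48 to 1.19 (median 0.95), a log2 fold change of 1.19 ± 0.23, and its neighbour IRX5 had one of 1.10.

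For some increases the direction rested on the GC offset. GPX4 (chr19:1103982-1106791, plus strand), the glutathione peroxidase that reduces lipid peroxides, read 8.15, 8.35, 9.55 and 8.69 in r1-r4 and 6.93 to 7.66 (median 7.23) in the control group after correction, a log2 fold change of 1.51 ± 0.23, but -0.0043 without offsets. PPP1R14A (chr19:38251237-38256532, minus strand), an inhibitor of myosin phosphatase, had 1.34 ± 0.25 with offsets and -0.0035 without. CKB (chr14:103519667-103522833, minus strand), the brain-type creatine kinase, had 1.15 ± 0.20 with offsets and -0.62 without. JUND (chr19:18279694-18281622, minus strand), a subunit of AP-1, had 1.05 ± 0.16 with and -0.80 without, and RPL36 (chr19:5674947-5691875, plus strand), a ribosomal protein, had 1.13 ± 0.25 with and -0.12 without. These 5 genes have exon GC contents of 67.3%, 65.7%, 69.9%, 69.9% and 64.6%, all above the median of 60.0% over the higher members. Other increases kept their sign and lost their call without offsets. HSPA1A had 0.86, below the fold limit, IRX3 had 0.085, RPL10A 0.23, RPL35 0.45, GADD45B 0.61, H2AC11 0.73, IFITM1 0.79, ZNF511 0.64 and RBP4 0.92. H4C9 (1.02) and SERPINA1 (1.39) were called without offsets too.

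Nuclear genes of mitochondria and ribosomes held few members. In lists of this size such counts differ by few genes from the share of all genes tested, 1.2%, and are no result about these lists. Of 80 tested nuclear genes of oxidative phosphorylation 2 (2.5%) were members, COX6A1 at -1.46 ± 0.38 and NDUFA11 at -1.20 ± 0.26, and the list median was 0.0045. Among 75 mitochondrial ribosomal protein genes 2 (2.67%) were members, of which MRPS12 changed by -1.07 ± 0.26 and MRPL12 by -1.36 ± 0.36, while the list median was 0.15. Among 85 cytosolic ribosomal protein genes 3 (3.53%) were members, RPL10A, RPL35 and RPL36, all higher, RPL10A by 1.02 ± 0.21 and RPL35 by 1.26 ± 0.27, with a list median of 0.044. Without r3 and r4 none of these 3 lists held a called gene. In each of these 3 ribosomal protein genes r3 was the highest of r1-r4 and r1 lay inside the control range. The mitochondrial carrier gene SLC25A42 changed by -1.15 ± 0.23, the 1 member of 40 tested SLC25 genes, and PSMB10, an immunoproteasome subunit, by -1.04 ± 0.25, the 1 member of 46 proteasome genes.

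Another list with lower values joined genes that host small nucleolar RNAs (snoRNAs) in their introns and nuclear long noncoding RNAs. Among its 31 tested genes 2 were members, both lower, and 5 were lower at an adjusted p of 0.05 without a fold limit. Over all genes tested 0.854% were lower members and 2.26% were lower at that adjusted p. Of the 31 genes, 28 had log2 fold changes below 0, against 8307 of 16852 over all genes, and the list median was -0.38. This list held 1 to 3 members over the same 21 fits, 5 without offsets and 0 without r3 and r4. SNHG32 read 3.48, 3.11, 3.17 and 2.39 in r1-r4 and 3.74 to 5.05 (median 4.37) in the control group (log2 fold change -1.36 ± 0.26). SNHG7 read 4.93, 5.18, 5.16 and 4.34 against 5.30 to 6.42 (median 6.00), a log2 fold change of -1.12 ± 0.20. The groups did not overlap for either gene, but both share 20% or more of their exon bases with another gene, SNHG7 with DIPK1B on the opposite strand.

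**Figure D3:**
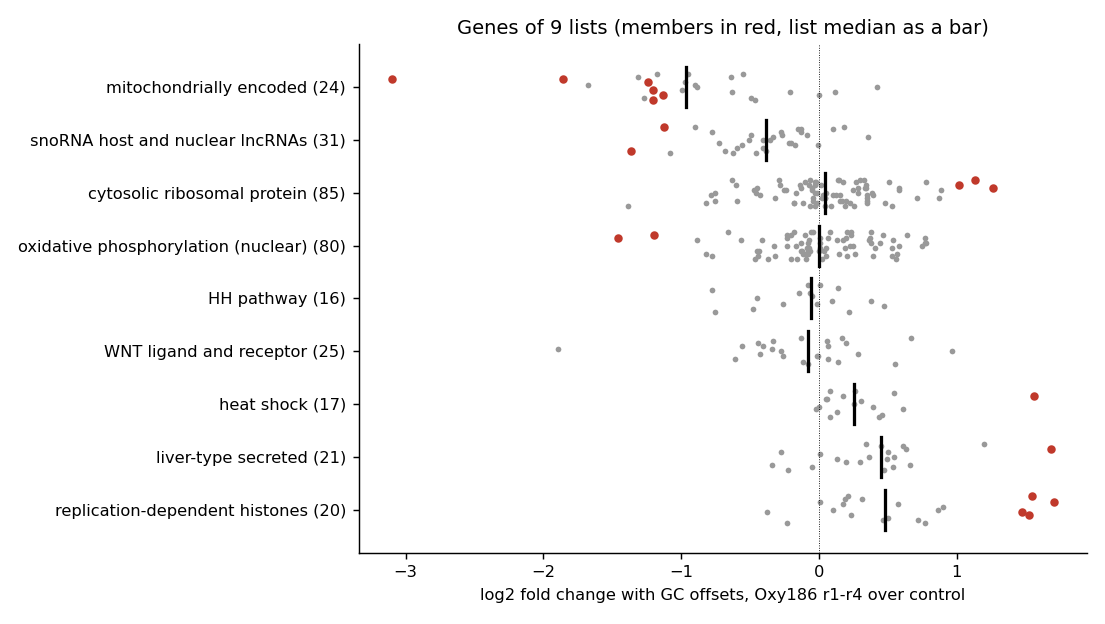
Log2 fold change with GC offsets of r1-r4 over control (horizontal axis) for the tested genes of 9 lists (vertical axis, number tested in parentheses), with members in red and the list median as a bar. The mitochondrially encoded genes have a median of -0.96 and the replication-dependent histone genes one of 0.48, and the HH and WNT lists hold no member.

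Surface, secreted and immune genes contributed single members. Over all genes tested 1.2% were members. In lists of this size a count of 1 differs by few genes from that share and is no result about these lists. MUC1 (chr1:155185824-155192916, minus strand), a membrane mucin of epithelia, read 5.76, 5.91, 5.70 and 6.38 in r1-r4 and 6.62 to 7.38 (median 6.91) in the control group (log2 fold change -1.09 ± 0.17), and was the 1 member of 21 tested mucin and secretory genes. NBL1 (chr1:19596979-19658456, plus strand), a secreted antagonist of bone morphogenetic proteins, changed by -1.27 ± 0.21, the 1 member of 30 TGF-beta pathway genes. The zinc transporter SLC39A3 changed by -1.24 ± 0.18. The epithelial chemokine CXCL17 changed by 1.51 ± 0.33 and the interferon-induced gene IFITM1 by 1.40 ± 0.30, each the 1 member of its list of 17 and 29 tested genes, and r2 lay inside the control range for both. Leaving out r3 or r4 ended the calls of CXCL17 and IFITM1.

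Several pathways that the study addressed held no member, where 1.2% of all genes tested were members. In lists of this size a count of 0 is near that share and is no result about these pathways. The HH list had 0 of 16 tested genes called and a median log2 fold change of -0.060, with GLI1 at -0.14, GLI2 at 0.22, the receptor PTCH1 at -0.052 and the signal transducer SMO at 0.14. WNT ligands and receptors had 0 of 25 called and a median of -0.079, with the co-receptors LRP5 at 0.28 and LRP6 at 0.061. Intracellular and feedback genes of WNT signaling had 0 of 26 called and a median of 0.072, with the feedback gene AXIN2 at 0.24 and CTNNB1, which encodes beta-catenin, at -0.095. Epithelial-mesenchymal transition genes (0 of 19), endoplasmic reticulum stress genes (0 of 24), integrins (0 of 21) and keratins (0 of 21) held no member either. A list without a member does not show that its genes were at the same level in both groups.

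Many of the largest decreases belonged to genes whose counts are uncertain. The processed pseudogene AC018638.1 changed by -6.92 ± 1.498 and AC074143.1 by -4.14 ± 0.95, and 100.0% and 94.5% of their exon bases lie inside other genes. ATAD3B, which has near-identical neighbours in ATAD3A and ATAD3C, changed by -4.09 ± 0.69 at a mean log2 CPM of -0.81. SRXN1 (chr20:646615-653200, minus strand), which repairs oxidized peroxiredoxins, read -1.34, 0.19, -1.15 and -0.14 in r1-r4 on raw counts of 4, 14, 4 and 11, and 1.90 to 3.23 (median 2.69) in the control group (log2 fold change -3.38 ± 0.37). Of its exon bases 90.7% lie inside AL121758.1 on the same strand. FTH1 (chr11:61959718-61967634, minus strand), the heavy chain of the iron store ferritin, read 5.53, 5.73, 5.24 and 4.67 against 6.70 to 9.01 (median 8.52), a log2 fold change of -3.05 ± 0.40, and shares 63.2% of its exon bases with BEST1 on the opposite strand. These were the 2 members of 29 tested NRF2 and antioxidant genes (6.9%, against 1.2% of all genes tested). The other 27 included NQO1 at a log2 fold change of 0.0022 and TXNRD1 at 0.035. CYP51A1, the lanosterol demethylase of cholesterol synthesis, changed by -3.09 ± 0.44 on raw counts of 5, 1, 2 and 2, and shares 68.2% with AC000120.2.

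The glycolytic enzyme ALDOA changed by -1.54 ± 0.32 and shares 42.8% of its exon bases with AC093512.2, CTSD, a lysosomal protease, by -1.17 ± 0.23, the sodium-proton exchanger SLC9A3 by -1.91 ± 0.50, and the zinc finger genes ZNF428 by -1.39 ± 0.30 and ZNF511 by 1.14 ± 0.21. For such genes the count covers only reads that could be assigned to 1 gene, and whether counting used the strand of reads is not given in the sources used here. Of 62 lower members with at least 20% overlap, 35 shared at least 20% of their exon bases with genes of the same strand. For 29 the partner, the gene with the largest shared part, was itself tested. Of those partners 2 had an adjusted p at or under 0.05 by edgeR, and their median log2 fold change was -0.11. The share of all counts that fell on genes with such overlap was 4.83% to 5.18% in r1-r4 and 5.15% to 5.49% in the control group. Among higher members with uncertain counts, ILRUN-AS1, antisense to ILRUN, changed by 1.66 ± 0.29, the pseudogene FAM238C by 1.62 ± 0.28 and the ribosomal protein pseudogene RPS28P7 by 1.56 ± 0.25.

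Single libraries carried part of these calls. The fits below reuse the comparison that chose the members, so a kept call describes these libraries and supports nothing further. Of 68 named members, 34 kept their call when each of the 11 libraries was left out in turn, among them TSPO, GNG5, BBC3, SNRPB, MUC1, MT-ND1, MT-ND2, MT-ND6, MT-TW, H4C9, HSPA1A, SERPINA1 and GPX4. Besides CXCL17, IFITM1 and the genes at the thresholds, leaving out r3 ended the calls of C19orf81, PILRA, CKB, JUND, ALDOA, H4C14, COX6A1, NDUFA11, RPL10A, RPL35, RPL36, MT-TR, SLC9A3 and ZNF511. Leaving out r4 ended those of C19orf81, PILRA, H2AC11, BIK, JUND, ALDOA, COX6A1, NDUFA11, MRPL12, MRPS12, PSMB10, MT-TL1, MT-TR, SLC25A42, SLC9A3, ZNF428, SNHG7 and CTSD. H4C5 lost its call without r1 and RBP4 without r2, and BIK, H4C14, COX6A1, MRPL12, PSMB10, SLC9A3, MT-TR, H2AC11 and RPL10A lost theirs without several single control samples too. The highest adjusted p over the 11 fits by edgeR was 0.0631 for C19orf81, 0.0695 for PILRA, 0.134 for H2AC11, 0.142 for BIK, 0.155 for H4C14, 0.121 for MT-TR, 0.143 for COX6A1 and 0.15 for MRPL12.

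The other tumors show how the members varied where they had not been chosen. As a description over each library, the median difference of the 144 lower members from the control means was -1.55 to -1.20 in r1-r4, -0.29 to 0.23 in the control group, 0.14 to 0.19 in r5-r7 and -0.51 to -0.0042 in the Oxy210-treated samples. For the 58 higher members it was 0.93 to 1.64, -0.23 to 0.23, -0.21 to 0.23 and 0.037 to 0.42 in the same order. No library outside r1-r4 reached their levels. The members were chosen by the difference between r1-r4 and these control samples, so this separation is a description and no further result. The control sample with the lowest GC slope, -0.15, also had the lowest median of the lower members, -0.29, and the 4 Oxy210-treated samples with slopes below 0 had medians of -0.51 to -0.26, against -0.031 to -0.0042 in the other 3. The part of the remaining GC trend in these medians was not tested.

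**Figure D4:**
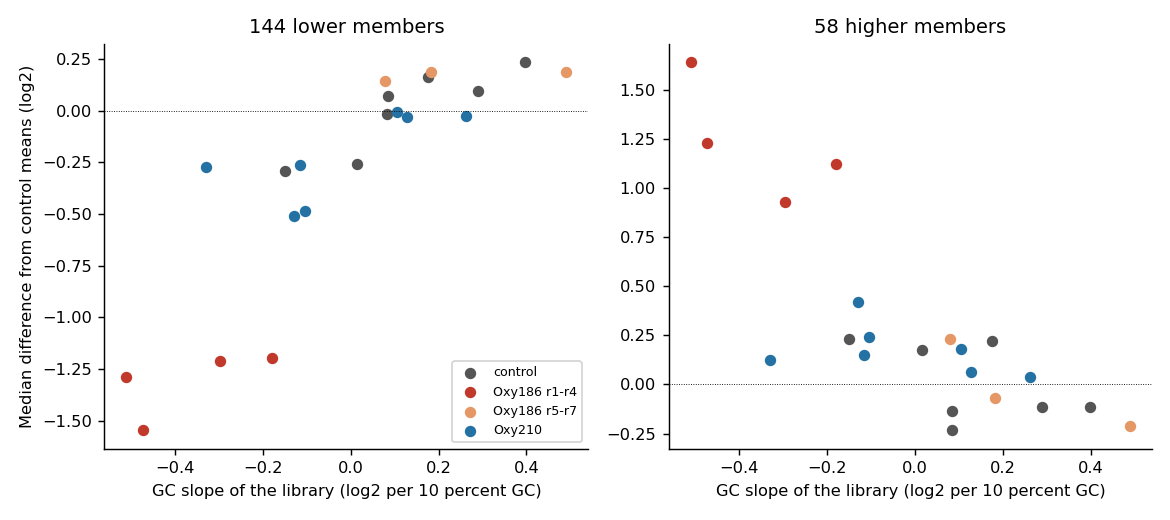
Median difference of the lower (left) and higher (right) members from the control means on the log2 scale (vertical axis) against the GC slope of each of the 21 libraries (horizontal axis), coloured by group. The r1-r4 samples lie at -1.55 to -1.20 and 0.93 to 1.64 and have slopes of -0.51 to -0.18, and the Oxy210-treated sample with a slope of -0.33 lies near the other Oxy210-treated samples.

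Whether the left-out Oxy186-treated tumors differed from the control group was asked with r5-r7, which share the control samples with the comparison that chose the members. The study set r5-r7 aside because they were mixed with the control group on its principal component plot of these data. That choice favoured few calls here, so their scarcity is no independent result about these tumors. No member was called there, at 0.00577% of 17342 genes tested, and the 1 gene called, the signal recognition particle RNA gene RN7SL1, was higher by 1.73 ± 0.20 (SE, adjusted p = 0.00993 by edgeR) and is no member. An unadjusted p under 0.05 was reached by 833 genes in all, 4.8% of those tested, and by 23 of 144 lower and 6 of 57 tested higher members. The lower members had a median log2 fold change of 0.098 and the higher members one of 0.032. TSPO, BBC3, GNG5 and H4C9 had log2 fold changes of 0.16, 0.23, 0.11 and -0.58 there, each with an adjusted p of 0.998.

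Oxy210-treated samples against the same control group gave 0 called genes of 16396 tested (0%), with a smallest adjusted p of 0.122 by edgeR, and 0 by limma voom as well. An unadjusted p under 0.05 was reached by 2357 genes (14.4%), and by 41 of 144 lower and 14 of 54 tested higher members. The median log2 fold change was -0.26 over the lower and 0.17 over the higher members. The log2 fold change of TSPO was -0.49 ± 0.15 (adjusted p = 0.191), that of MUC1 -0.60 ± 0.13 (adjusted p = 0.135), that of ALKBH7 -0.63 ± 0.13 (adjusted p = 0.135) and that of SERPINA1 1.14 ± 0.38 (adjusted p = 0.232), and none of these passed the threshold.

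All 7 Oxy186-treated samples against control gave 0 called genes of 16291 tested, 0 by limma voom, a smallest adjusted p of 0.842 by edgeR and 963 genes (5.91%) with an unadjusted p under 0.05. This comparison includes r1-r4, so the members' medians there, -0.53 and 0.88, are partly the values that chose them.

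A comparison of r5-r7 with the Oxy210-treated samples shares no library with the one that chose the members, although r5-r7 are the tumors that the study set aside for their position. It called 8 genes higher in r5-r7 and 0 lower (0.046% of 17401 tested), and MRPL12 was the 1 member among them. MRPL12, a protein of the mitochondrial ribosome, read 3.95, 4.23 and 4.62 in r5-r7 and 2.52 to 3.55 (median 2.94) in the Oxy210-treated samples, so the groups did not overlap, and the log2 fold change was 1.20 ± 0.21 (adjusted p = 0.0427). MRPL12 shares 69.5% of its exon bases with AC139530.2. SNHG32 had an adjusted p of 0.0212 at a log2 fold change of 0.93 ± 0.15, below the fold limit.

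In that comparison 132 of 143 tested lower members were above 0, with a median log2 fold change of 0.40, and 45 had an unadjusted p under 0.05, where 8.29% of all genes had one. Of 57 tested higher members 37 were below 0, with a median of -0.20, and 12 had an unadjusted p under 0.05. COX6A1 had the log2 fold change 1.40 ± 0.29 (adjusted p = 0.0943) and TSPO 0.65 ± 0.16 (adjusted p = 0.214). The GC slopes of these groups differed in the same sense as those of the control group and r1-r4, at 0.079 to 0.49 in r5-r7 and -0.33 to 0.26 in the Oxy210-treated samples, and the part of the slope in these differences was not tested. The mitochondrial members MT-ND1, MT-ND2 and MT-TW had log2 fold changes of 0.02 ± 0.21, 0.02 ± 0.13 and -0.01 ± 0.49 there, all smaller than their errors.

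**Figure D5:**
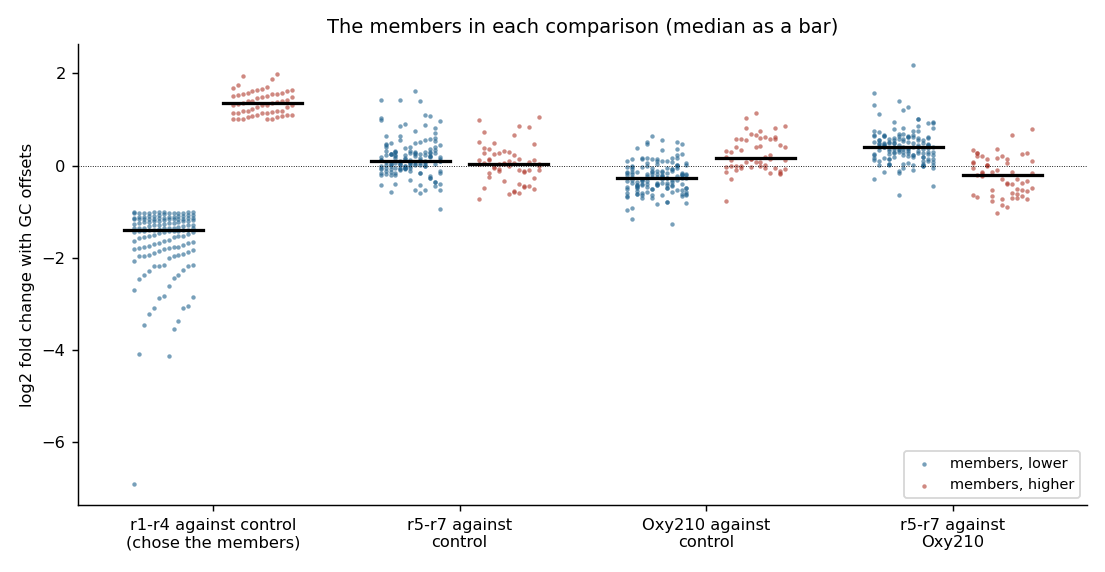
Log2 fold change with GC offsets (vertical axis) of each member in 4 comparisons (horizontal axis), lower members in blue and higher members in red, with medians as bars. In r1-r4 against control the sign is fixed by the choice of members, and in r5-r7 against the Oxy210-treated samples the medians are 0.40 for lower and -0.20 for higher members.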

How the data were processed

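RNA of 21 xenograft tumors was measured, 7 per group. Per the labels and the study's methods, the authors trimmed reads with Trimmomatic 0.39, aligned them with STAR 2.7.6a to combined human and mouse genomes (GRCh38.p13 with GENCODE 37, GRCm39 with mouse GENCODE 26) and counted genes with featureCounts of Subread 2.0.1; the human gene counts are deposited as whole numbers. A deposited log2 table of the authors matched log2 CPM of these counts, TMM-normalised with a prior count of 2, to within 4.97e-14 over 16852 genes. No sample column was left unused (0).

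The r1-r4 samples were fitted against control with edgeR 4.0.16 in R 4.3.3 (filterByExpr, TMM, glmQLFit and glmQLFTest). For each library, log2 CPM less the gene's mean over the fitted libraries was fitted on exon GC content by a natural spline. This spline (4 degrees of freedom, genes with mean log2 CPM of at least 1) entered as an offset. Exon GC, length and overlap came from GENCODE 44 on GRCh38, and 33 tested genes had no value. A call required more than a 2-fold difference with an adjusted p of 0.05 or less. The procedure was run on simulated counts built with the same spline trend that it removes. That run cannot show how well the trend fits these libraries. Named genes were the 14 largest decreases and 10 largest increases among called protein-coding genes with mean log2 CPM of at least 1, under 20% overlap and r1-r4 all outside the control range, besides called list members, genes at the thresholds and 3 uncertain genes each way. Genes named outside this rule were chosen after their values were seen. Members and lists were chosen with earlier results of these data known. The lists matched by symbol. Pseudogenes were dropped from them, and the promoter motifs picked, after values were seen. Alternatives used other scalings, filters, limma 3.58.1 (voom, the test that the study used), DESeq2 1.42.0, a replicate block and subsets of libraries. Replicate numbers did not pair r1-r4 with the control samples: same-numbered control and Oxy186-treated samples correlated at -0.40 to 0.029 in their deviations over r1-r4. Same-numbered control and Oxy210-treated samples correlated at -0.54 (replicate 2) to 0.41 (replicate 5). No libraries of a group agreed within sampling noise, and nothing beyond separate tumors is known of the replicates.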

Additional observations from a re-analysis of the deposited data

Results flagged for a closer look

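Of 222 groups of samples of named genes, 8 held a sample far from the others of its group, where chance would flag about 1 in 20 groups, or 11. In GC-corrected log2 CPM these were EIF5AL1 in Oxy186 replicate 4 at -0.17, H2AC11 in Oxy186 replicate 1 at 3.13, IRX3 in Oxy210 replicate 5 at 0.36, CKB in control replicate 7 at 7.66, H4C5 in control replicate 5 at -1.01, MT-ND1 in Oxy210 replicate 1 at 11.1, IFITM1 in control replicate 2 at 1.84 and NBL1 in Oxy186 replicate 2 at 3.41. The fourth r1-r4 value of EIF5AL1 and the first of H2AC11 lie on the side away from the control group, and that of NBL1 lies toward it. MRPL12 differed between r5-r7 and the Oxy210-treated samples by a log2 difference of 1.20, the one member called in that comparison.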

How the results depend on the processing

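The 144 lower and 58 higher genes became 221 and 38 with offsets centred to keep each library's mean, 1370 and 36 without GC offsets, 381 and 302 by adjusted p alone, and 62 and 23 at an adjusted p at or under 0.01. Requiring 10 counts in every library left 95 lower genes. Protein-coding genes with little overlap gave 56 and 26, and leaving out r3 and r4 gave 20 and 7 (both chosen after seeing the data). Leaving out 1 library at a time gave 70 (without r4) to 182 lower (without control replicate 6) and 33 (without r3) to 83 higher genes. Limma voom gave 131 and 55, DESeq2 201 and 74. Without offsets the log2 fold changes of GPX4, PPP1R14A, CKB, JUND and RPL36 were -0.0043, -0.0035, -0.62, -0.80 and -0.12. For r5-r7 against control the 1 higher gene became 0 without offsets, 9 with the replicate block and 0 to 1 with a library left out. For r5-r7 against the Oxy210-treated samples the 8 higher genes became 17 without offsets, 24 by adjusted p alone, 45 with the block and 1 to 6 with a library left out, which also gave 0 to 1 lower. The samples share only a number: with the replicate block the main comparison had 51 lower and 11 higher genes, 46 of them members, with 3 mitochondrially encoded and 1 histone gene called, and 0 of r1-r4 correlated best with the control sample of its own number. The cause of these changes was not tested. Members at low counts, such as CYP51A1, rest on few reads, and the GC trend was estimated from the same libraries that it corrects.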

Other observations

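Among the members not yet described, ACTB, the cytoskeletal actin used as a reference gene in many assays, was higher in r1-r4 by a log2 fold change of 1.07 ± 0.20 and did not overlap the control range. Lower members with developmental or signaling roles included AMH, anti-Müllerian hormone, at -1.25 ± 0.19, FES, a tyrosine kinase, at -2.16 ± 0.41, and S1PR4, a sphingosine-1-phosphate receptor of leukocytes, at -2.38 ± 0.48, none of which overlapped the control range. Cell cycle members rest on overlapping genes: PKMYT1, a kinase that inhibits CDK1, changed by -1.40 ± 0.30 with 31.9% of its exon bases inside other genes, and POLA2, a subunit of DNA polymerase alpha, by -1.22 ± 0.29 with 21.3%. The mitochondrial pseudogene MTND1P23 on chromosome 1 was higher by 1.94 ± 0.36, while MT-ND1, the gene it resembles, had a log2 fold change of -1.21. These genes were chosen after their values were seen.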
